A study of Homo sapiens with 15 samples.

Results

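Peaks of chromatin immunoprecipitation with sequencing (ChIP-seq) were examined at 4 genes of epithelial cells, CDH1, EPCAM, ESRP1 and CLDN4, in MDA-MB-231 cells. This established line comes from a triple-negative breast cancer and has a mesenchymal-like form. The 4 genes were chosen by name, and a peak was taken when it overlapped the gene or 10 kb on either side of it in hg19 by at least 1 bp. Of the 647617 peaks in 4 lists, 139 met this rule: 56 of 252459 in H3K4ox replicate 1, 53 of 246967 in H3K4ox replicate 2, 12 of 38584 in H2A.Z and 18 of 109607 in RUVBL2. H3K4ox is histone H3 oxidised at lysine 4, H2A.Z is a histone variant, and RUVBL2 is an ATPase of the complexes that exchange H2A.Z. The lists came from cells for which the labels name no knockdown or treatment, so every value here describes this single line in a single state. H2A.Z and RUVBL2 had 1 library each. The labels do not say whether the 2 H3K4ox libraries were separate cultures, and the spread between them may be only technical. The lists give peaks and no reads, so depth is unknown, and the 11 samples of the series without a list (1 input, 8 RNA-seq and 2 ATAC-seq libraries) were not analysed here. The genes are named as silenced in this line, and that was not checked, since no expression values were used here.

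Epithelial cells hold together through adherens junctions and tight junctions, and their loss accompanies the change to a mesenchymal form. CDH1 encodes E-cadherin, the main adhesion receptor of adherens junctions, and is a known repression target of SNAI1 and of LOXL2, the enzyme that oxidises lysine 4 of histone H3. EPCAM encodes a surface adhesion molecule of epithelial cells. CLDN4 encodes a claudin of tight junctions. ESRP1 is not an adhesion protein but an RNA-binding regulator that sets the epithelial pattern of splicing. MDA-MB-231 cells are known to lack E-cadherin.

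The genes lie in hg19 at chr16:68771128-68869451 (CDH1), chr2:47596287-47614167 (EPCAM), chr8:95653364-95719494 (ESRP1) and chr7:73245193-73247014 (CLDN4). Their lengths are 98.32, 17.88, 66.13 and 1.82 kb. Each is taken as transcribed toward higher coordinates, from general knowledge of CDH1, EPCAM and ESRP1 and from RefSeq for CLDN4. The first base is then the start, and the upstream and downstream sides rest on this. Distances below are from that base to the nearest edge of a peak, negative when upstream. In RefSeq's list for GRCh38.p14 the next protein-coding gene downstream of CDH1 is TANGO6, that of ESRP1 is DPY19L4 and that of CLDN4 is METTL27. None of these neighbours was placed on hg19 here, so a peak in a downstream flank is not assigned to either gene.

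None of the 139 peaks covered the first base of any of the 4 genes. A peak within 1 kb of the start was found in 3 of the 16 pairs of gene and list, each of them at EPCAM: H3K4ox replicate 1, H3K4ox replicate 2 and H2A.Z. For comparison, 22.2% of all windows of 2001 bp along the genome met a peak of H3K4ox replicate 1, 21.5% met one of replicate 2, 3.55% one of H2A.Z and 10.3% one of RUVBL2. These windows lie anywhere in the genome, and the shares at the starts of other genes were not counted. Of the 4 genes, CDH1 had the widest stretch free of peaks of any list around its start, 13.5 kb, from 7.61 kb upstream to 5.85 kb downstream. That of ESRP1 was 12.7 kb, that of CLDN4 7.85 kb and that of EPCAM 0.876 kb. The median genome window of 118.3 kb held 7 peaks of each H3K4ox list. Such stretches were not measured at other genes, so none of these widths is called unusual.

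**Figure D1:**
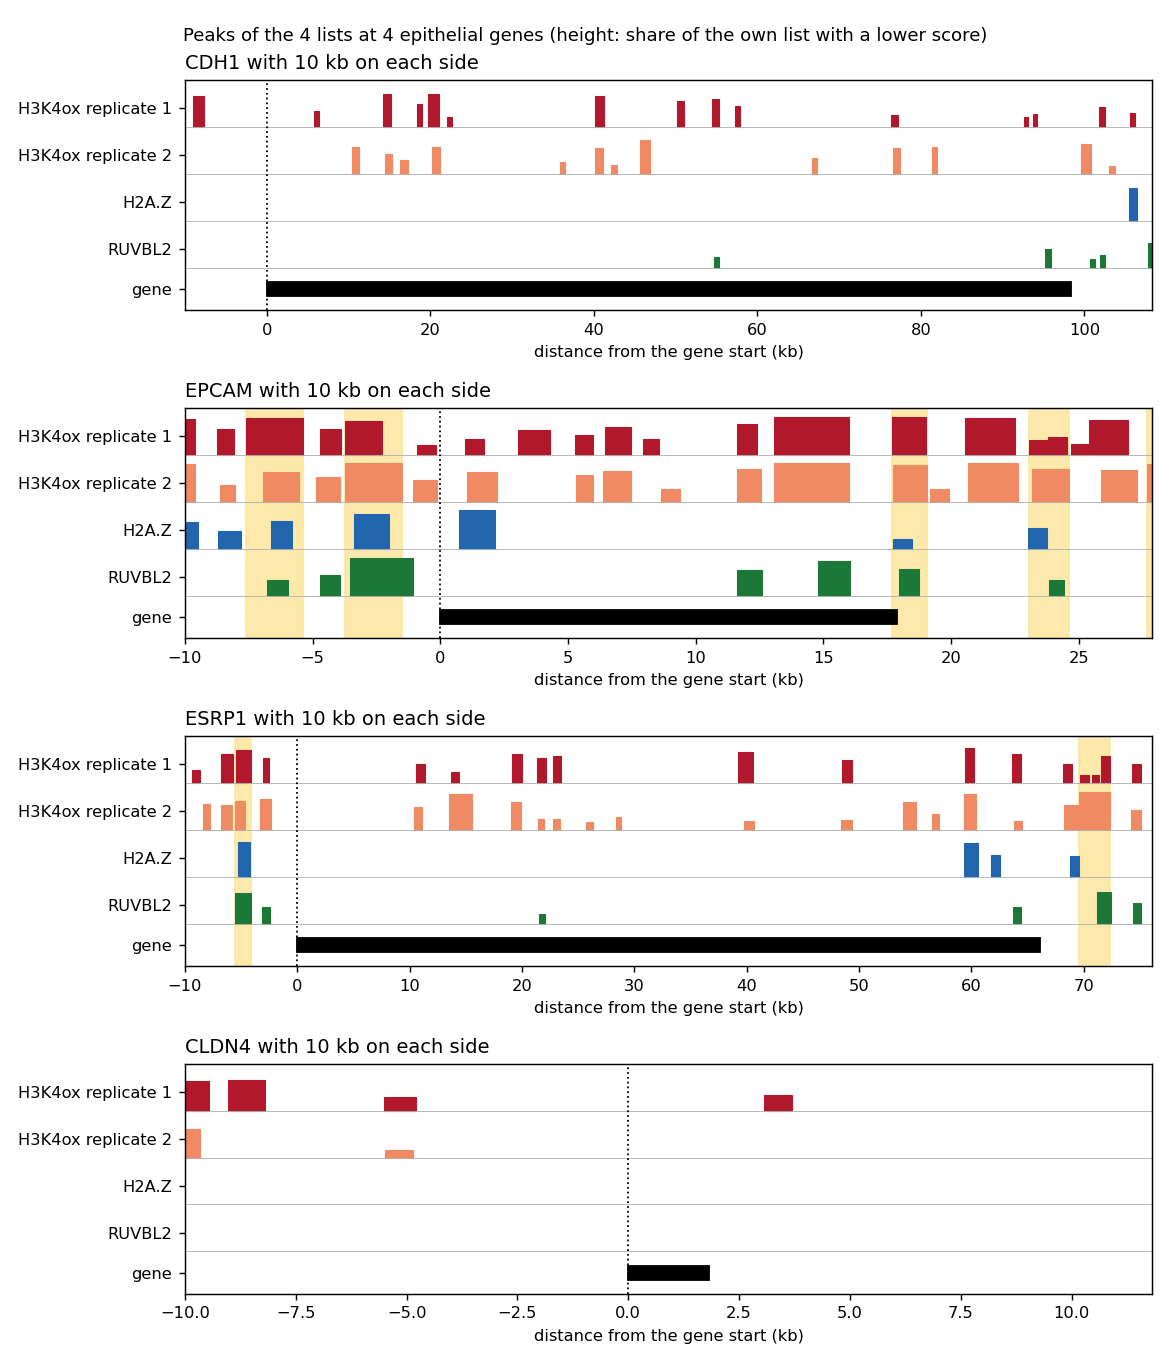
Peaks of each list (rows) by distance from the gene start in kb, for the 4 genes with 10 kb on each side. Block height is the share of the own list with a lower score, the black bar is the gene, the dotted line its start, and yellow marks the H3K4ox shared regions that met both H2A.Z and RUVBL2. EPCAM holds 51 peaks in 37.9 kb, CDH1 34 in 118.3 kb, ESRP1 48 in 86.1 kb and CLDN4 6 in 21.8 kb.

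For the CLDN4 start, which the lists left free of peaks for 7.85 kb, RefSeq holds the 250 bases before the start in GRCh38.p14, at chr7:73830746-73830995 on the plus strand. They are shown because CLDN4 alone of the 4 genes was matched to a promoter sequence. The free stretches of CDH1 and ESRP1 were wider. Capitals mark a GC box. The hg19 start used above may not be the same base, and the sequence was not placed on hg19.
CLDN4: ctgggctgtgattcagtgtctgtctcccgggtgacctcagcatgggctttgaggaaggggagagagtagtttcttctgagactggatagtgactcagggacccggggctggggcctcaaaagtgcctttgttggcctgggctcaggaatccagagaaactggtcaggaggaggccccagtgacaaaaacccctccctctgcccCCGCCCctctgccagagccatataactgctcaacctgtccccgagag
A single GC box (GGGCGG, read here on the minus strand as CCGCCC) began 47 bases before the start, and 42.6% of 35116 promoters of this length in the table held that motif on either strand. The E-box CAGGTG, the letters that SNAI1 and ZEB proteins bind, was not in these bases on either strand, and 17.5% of all promoters held it. CCAAT, held by 32.0% of promoters, and TATAAA, held by 10.7%, were not in them either. The stretch held 4 CG dinucleotides, 1 of them inside the GC box, against a median of 11, and 34.3% of promoters held 4 or fewer.

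CDH1 had H3K4ox peaks along its body, and both libraries held only a small share of them. Its window of 118.3 kb held 15 peaks in replicate 1 and 13 in replicate 2 (mean 14.0 ± 1.41, SD, n = 2), of which 12 and 11 lay in the gene beyond 1 kb from the start. The libraries differed by 2 peaks in number but mostly in place: 4 of 15 replicate 1 peaks (26.7%, exact 95% interval 7.8 to 55.1) overlapped a replicate 2 peak, and 4 of 13 replicate 2 peaks (30.8%, 9.1 to 61.4) overlapped one of replicate 1. In the whole lists these shares were 67.8% and 70.2%, above both intervals. With each list split at every 10% of its score ranks, peaks of the whole list in the same rank groups as those of CDH1 met the other library in 62.1% (replicate 1) and 64.0% (replicate 2) of cases, which also lay above the intervals. The intervals are Clopper-Pearson intervals, treat peaks as independent and cover counting error only, and the difference was not tested.

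The 4 regions of CDH1 that both H3K4ox libraries held (H3K4ox shared regions, merged peaks with at least 1 of each replicate) lay far inside the gene. They began 14.2, 19.7, 40.2 and 76.3 kb after the start. The region at 19.7 kb, chr16:68790810-68792298, had scores of 152.38 in replicate 1 and 93.99 in replicate 2. The region at 14.2 kb had 143.73 and 70.56, and the region at 40.2 kb had 126.19 and 90.35. The score is the authors' own for each peak, used here only to rank peaks within a list. In these 3 regions, in the order of their distance, the replicate 1 peaks were higher than 76.7%, 78.6% and 72.0% of their list and the replicate 2 peaks higher than 38.4%, 58.7% and 56.3% of theirs. The region at 76.3 kb had scores of 55.53 and 92.27, higher than 13.0% and 57.6% of the lists. None of the 4 regions met an H2A.Z or a RUVBL2 peak.

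The best-scoring CDH1 peak of replicate 2 had no partner in replicate 1. It lay 45.6 kb after the start, with a score of 161.07, higher than 80.8% of its list. The best of replicate 1, with 152.38, was higher than 78.6% of its list. No CDH1 peak of either library was in the upper 10% of its list by score. Nearest to the start were a replicate 1 peak at 5.85 kb (score 61.98, higher than 24.9% of the list) and another at -7.61 kb (score 128.60). Replicate 2 held neither. Its nearest peak, at -10.2 kb, fell 199 bp outside the window and had a score of 81.53.

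In the CDH1 window, the H2A.Z peak and 3 of the 5 RUVBL2 peaks lay in the downstream flank, so they are not assigned to CDH1. The gene itself held 0 H2A.Z peaks and 2 RUVBL2 peaks. The single H2A.Z peak of the window, chr16:68876600-68877517, lay beyond the gene end, 105 kb after the start, with a score of 94.51 (higher than 76.7% of the list). It met a weak H3K4ox peak of replicate 1 (score 58.84) and none of replicate 2. No H2A.Z peak lay nearer than 52.9 kb upstream, and the stretch free of H2A.Z around the start measured 158 kb. RUVBL2 had 5 peaks, at 54.7, 95.1, 101, 102 and 108 kb, with scores of 53.09, 63.37, 51.73, 54.77 and 77.75. Only the one at 108 kb was in the upper 50% of its list by score, and 3 of the 5 met an H3K4ox peak of 1 library. With 0 of 5 in an H3K4ox shared region (exact 95% interval 0 to 52.2%), the share lay below the 64.4% of all RUVBL2 peaks, and 5 peaks allow no more than that statement.

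The number of CDH1 peaks was not unusual for a window of its length. Of 25422 windows of 118.3 kb laid end to end along the genome, 21.4% held at least 15 peaks of replicate 1 and 25.3% at least 13 of replicate 2. At least as many peaks were held by 34.6% of windows for RUVBL2 and 58.0% for H2A.Z. The window held 11.8 ± 1.2 H3K4ox peaks per 100 kb (SD, n = 2). The 500 kb upstream held 11.4 in replicate 1 and 10.4 in replicate 2, and the 500 kb downstream held more, 20.8 and 22.2. H3K4ox shared regions were 3.4 per 100 kb in the window, 5.4 upstream and 13.8 downstream. Their number in the window, 4, was also the median over genome windows of this length.

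The EPCAM window was the richest in peaks, most of them in its flanks. Without the flanks, the gene held 7.5 H3K4ox peaks (mean of both libraries), 2 of H2A.Z and 2 of RUVBL2. Its window of 37.9 kb held 19 H3K4ox peaks in replicate 1, 18 in replicate 2, 7 H2A.Z peaks and 7 RUVBL2 peaks. H3K4ox peaks covered 56.01% of the window in replicate 1 and 56.05% in replicate 2, H2A.Z covered 17.26% and RUVBL2 20.31%. Of 79440 genome windows of the same length, 0.128% held as many replicate 1 peaks, 0.279% as many of replicate 2, 0.278% as many of H2A.Z and 2.58% as many of RUVBL2. The median window held 2 peaks of each H3K4ox list, 0 of H2A.Z and 1 of RUVBL2. In H3K4ox the window had 48.9 ± 1.91 peaks per 100 kb (SD, n = 2), against 18.1 ± 0.495 in the 500 kb on each side.

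**Figure D2:**
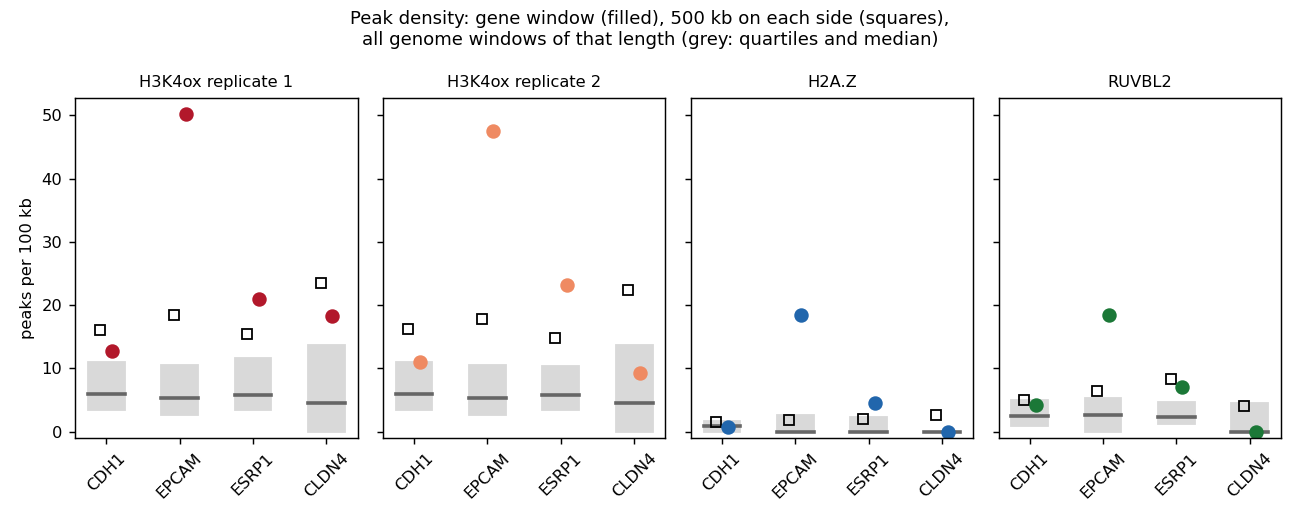
Peaks per 100 kb for each list (panels) and gene. Filled points are the gene windows, open squares the 500 kb on each side, and grey boxes and lines the quartiles and median over all genome windows of that gene's window length. EPCAM stands at 50.2 and 47.5 per 100 kb in the H3K4ox lists and at 18.5 in those of H2A.Z and RUVBL2, above its surroundings and above the quartiles in each panel.

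The EPCAM start lay between peaks, with both H3K4ox libraries and H2A.Z close by. Upstream, H3K4ox ended 182 bp before the start in replicate 1 (score 53.04, higher than 7.5% of the list) and 144 bp before it in replicate 2 (score 76.12, higher than 44.7%). Downstream, H3K4ox began again at 0.973 kb in replicate 1 (score 63.02) and at 1.06 kb in replicate 2 (score 114.76). The H2A.Z peak chr2:47597020-47598428 began 0.733 kb after the start and was the best of the 12 H2A.Z peaks at the 4 genes. Its score of 274.75 was higher than 97.3% of the H2A.Z list. The best RUVBL2 peak of the 18 also lay here, chr2:47592753-47595225, ending 1.06 kb before the start, with a score of 245.05 (higher than 92.9% of its list) and a width of 2473 bp. RUVBL2 had no peak from there to 11.6 kb after the start, while the best H2A.Z peak was downstream of the start. That best RUVBL2 peak also met another H2A.Z peak upstream of the start (score 112.65, higher than 83.7% of its list).

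The best H3K4ox peaks of EPCAM lay toward the end of the gene and were held by both libraries. The region chr2:47609336-47612299, 13.0 kb after the start, had scores of 319.00 in replicate 1 and 399.81 in replicate 2, higher than 93.4% and 96.4% of the lists. It met a RUVBL2 peak (score 161.03) and no H2A.Z peak. Of the 19 replicate 1 peaks, 16 (84.2%, exact 95% interval 60.4 to 96.6) overlapped replicate 2, and of the 18 replicate 2 peaks, 16 (88.9%, 65.3 to 98.6) overlapped replicate 1. The first interval held the 67.8% of the whole list, and the second the 70.2%. All 7 H2A.Z and all 7 RUVBL2 peaks of the window lay in H3K4ox shared regions, each with an exact interval of 59.0 to 100%, which lies above the 45.2% of the whole H2A.Z list and holds the 64.4% of the RUVBL2 list. These regions covered 56.99% of the window, so a peak placed anywhere in it would often meet one. Whether the overlap exceeded that was not tested.

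ESRP1 also had H3K4ox peaks that mostly recurred in both libraries, but an empty first part. Its window of 86.1 kb held 18 H3K4ox peaks in replicate 1 and 20 in replicate 2 (mean 19.0 ± 1.41, SD, n = 2), 4 H2A.Z peaks and 6 RUVBL2 peaks. Windows with as many made up 9.39%, 6.99%, 8.28% and 16.7% of the 34932 genome windows of this length. From 2.33 kb upstream of the start to 10.4 kb downstream no list had a peak. Of the replicate 1 peaks 17 of 18 (94.4%, exact 95% interval 72.7 to 99.9) met replicate 2, and of the replicate 2 peaks 15 of 20 (75.0%, 50.9 to 91.3) met replicate 1. The first interval lay above the 67.8% of the whole list and the second held the 70.2%. Of the 17 peaks, 3 met the same wide replicate 2 peak. They were not independent, as the interval assumes, and the difference was not tested.

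Upstream of ESRP1 lay a compact group of peaks. The H3K4ox shared region chr8:95647828-95649261, 4.10 kb before the start, had scores of 153.56 and 107.53 and met the best H2A.Z peak of the window (score 109.10, higher than 82.7% of the list) and a RUVBL2 peak (score 103.70, higher than 70.8%). Nearer to the start, at -2.33 kb, a further shared region had scores of 85.74 and 119.99 and met RUVBL2 (59.71) alone. Within the gene, the region 59.4 kb after the start had scores of 186.13 and 202.31 and met H2A.Z (101.21) alone. The best replicate 2 peak, with 281.73, and the best RUVBL2 peak of the window, with 116.12, lay beyond the gene end, from 69.6 and 71.2 kb. All 6 RUVBL2 peaks lay in H3K4ox shared regions (exact 95% interval 54.1 to 100%), as did 3 of the 4 H2A.Z peaks (19.4 to 99.4%). Both intervals held the shares of the whole lists.

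CLDN4 was the gene with the fewest peaks. Its window of 21.8 kb held 4 H3K4ox peaks in replicate 1 and 2 in replicate 2, and no H2A.Z or RUVBL2 peak. No list had a peak in the gene itself or within 3 kb of its start. Both libraries held a peak at -9.45 and -9.65 kb (scores 117.44 and 105.39) and a weak one at -4.79 and -4.87 kb (58.82 and 50.89, higher than 19.3% and 2.3% of the lists). Replicate 1 alone had peaks at -8.19 kb (121.61) and at 3.06 kb (62.79). Empty windows were common at this length, 79.4% of 137910 for H2A.Z and 54.9% for RUVBL2, so the absence of those peaks did not set CLDN4 apart. The nearest RUVBL2 peaks lay 30.4 kb upstream and 30.7 kb downstream, and the nearest H2A.Z peaks 44.8 kb upstream and 99.2 kb downstream.

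**Figure D3:**
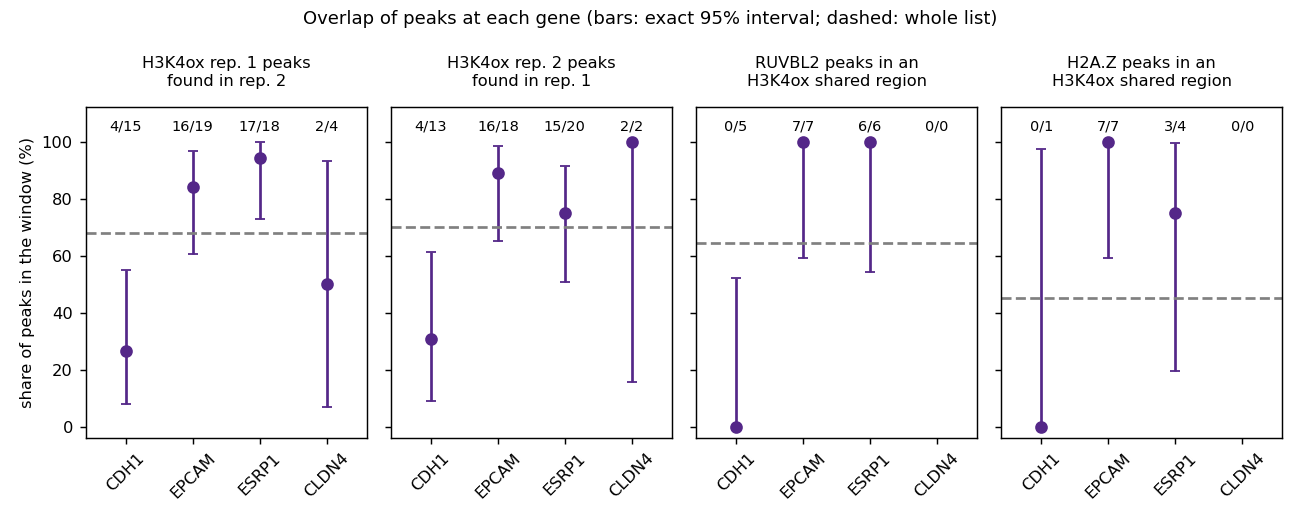
Share of the peaks in each gene window that overlapped a peak or region of another list, in percent, with exact 95% binomial intervals and the counts above. Dashed lines are the shares over the whole lists. CDH1 lies below the dashed line for H3K4ox in both directions (4 of 15 and 4 of 13), while EPCAM and ESRP1 lie above it, with intervals that reach it except for the 17 of 18 at ESRP1. Of those 17 peaks, 3 met the same replicate 2 peak.

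EPCAM had the highest median score rank of the 4 genes in both H3K4ox lists. The median replicate 1 peak was higher than 57.3% of its list at EPCAM, 52.2% at ESRP1, 47.6% at CLDN4 and 40.7% at CDH1. In replicate 2 the order differed, with 73.0% at EPCAM, 56.3% at CDH1, 50.2% at ESRP1 and 33.6% at CLDN4. The order of CDH1, ESRP1 and CLDN4 thus did not hold between the libraries. Over the 4 genes, 30 of 56 replicate 1 peaks and 32 of 53 replicate 2 peaks were in the upper 50% of their list. For H2A.Z it was 7 of 12 and for RUVBL2 7 of 18.

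**Figure D4:**
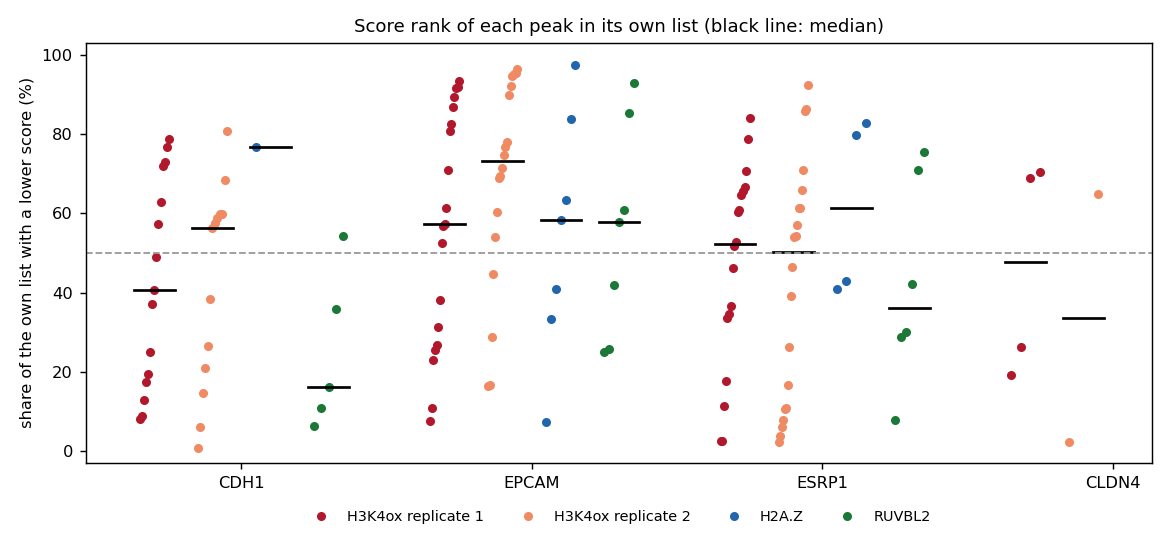
Score rank of every peak at the 4 genes, as the share of its own list with a lower score, in percent. Each point is a peak, black lines are medians and the dashed line is 50%. The upper 10% of the lists holds 3 replicate 1 peaks, 6 replicate 2 peaks, 1 H2A.Z peak and 1 RUVBL2 peak, at EPCAM except for 1 replicate 2 peak at ESRP1.

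Joint sites, H3K4ox shared regions that met both an H2A.Z and a RUVBL2 peak, were found at EPCAM and ESRP1. Of 37 shared regions in the 4 windows, 7 were joint sites, 5 of 16 at EPCAM, 2 of 15 at ESRP1, 0 of 4 at CDH1 and 0 of 2 at CLDN4. Among all 162645 shared regions 6.21% were joint sites. As many shared regions as at EPCAM were held by 0.0718% of windows of its length, as many as at ESRP1 by 6.45%, as many as at CLDN4 by 30.5% and as many as at CDH1 by 58.6%. Windows with at least 5 joint sites made up 0.181% of those of EPCAM length, and windows with at least 2 made up 5.34% of those of ESRP1 length. With 76.4% of windows of CDH1 length and 93.4% of those of CLDN4 length holding none, an empty window was the common case.

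The EPCAM joint sites lay on both sides of the gene, and only 1 of the 5 reached into the gene itself. The one nearest to the start, chr2:47592554-47594804, ended 1.48 kb before it and had H3K4ox scores of 164.45 and 359.69, an H2A.Z score of 112.65 and a RUVBL2 score of 245.05. The next upstream ended at -5.38 kb, with H3K4ox scores of 277.74 and 116.12, an H2A.Z peak of 76.74 and a RUVBL2 peak of 58.05. At the gene end, chr2:47613970-47615331 had 284.49 and 243.87, with a weak H2A.Z peak (51.59) and RUVBL2 (85.90). In these 3 the H2A.Z and RUVBL2 peaks also overlapped each other. In the site at 23.0 kb they did not. The site at 27.7 kb ran out of the window, where its H2A.Z (50.74) and RUVBL2 peaks lay. There, too, the H2A.Z peak overlapped RUVBL2.

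At ESRP1 the joint site at -4.10 kb held H2A.Z and RUVBL2 peaks that overlapped each other. The site at 69.6 kb met its H2A.Z peak by only 33 bp, and that peak did not reach the RUVBL2 peak. With intervals of 200 bp at the peak centres in place of whole peaks, the 4 windows held 22 shared regions, of which 0 were joint sites. Over the whole genome 1.84% of the 129336 shared regions defined in that way were joint sites. The count was 1 with genes alone, 2 with the upper 50% of each list by score and 4 without H3K4ox replicate 2.

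**Figure D5:**
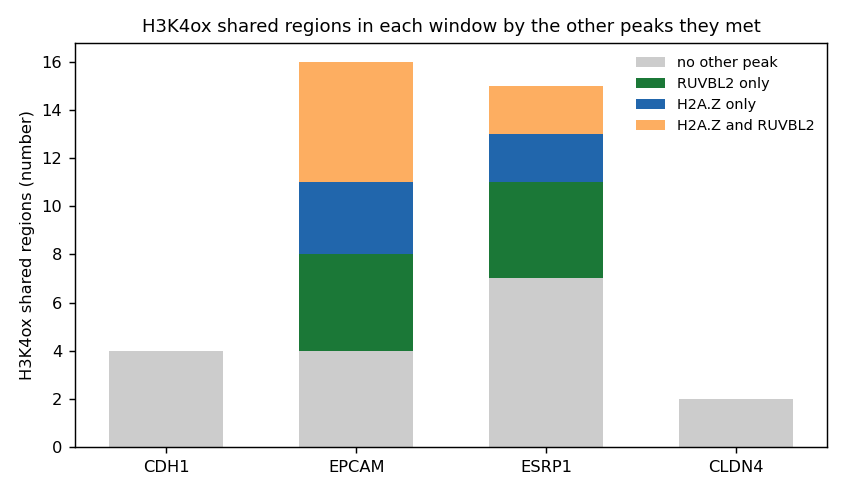
Number of H3K4ox shared regions in each gene window, divided by the other peaks they met. EPCAM holds 16 regions, of which 12 met H2A.Z, RUVBL2 or both; ESRP1 holds 15, of which 8 did; none of the 4 at CDH1 or the 2 at CLDN4 did.

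Apart from the joint sites, 8 of the 37 regions met RUVBL2 only, 5 met H2A.Z only and 17 met neither. RUVBL2 was met by 15 of the 37 (40.5%) and by 38.5% of all shared regions, and H2A.Z by 12 (32.4%) and 10.3%. The H2A.Z regions were 8 at EPCAM and 4 at ESRP1. The ESRP1 regions at 68.2 and 69.6 kb met the same H2A.Z peak (score 61.89). The EPCAM region at 27.7 kb met only an H2A.Z peak outside the window. At the EPCAM start the H3K4ox region that ended 144 bp before it counted as meeting RUVBL2 through 18 bp.

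Several peaks lay close to the 10 kb limit of the windows. Just outside the EPCAM window lay an H2A.Z peak that ended 12.6 kb before the start, with a score of 295.62, higher than that of any H2A.Z peak inside (51.59 to 274.75). Just outside that of ESRP1, by 307 bp, lay an H2A.Z peak with 395.86, where those inside had 61.89 to 109.10. At CDH1 a RUVBL2 peak of 77.75 crossed the downstream edge and the next, with 64.79, lay 946 bp beyond it. At CLDN4 the farthest upstream H3K4ox peaks crossed the upstream edge in both libraries, and the next outside, with 168.43 and 107.28, lay 1.77 and 1.92 kb beyond it.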

How the data were processed

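Peak lists of 4 ChIP-seq libraries of MDA-MB-231 cells were used, grouped by the antibody in the labels. Peaks were called per library, and their names are those that MACS gives, per the file headers. Only the headers of the H3K4ox lists name an input, and all carry an unexplained word, multilocus. Without an input, copy number and mappability can add peaks. Bowtie, TopHat and the build hg19 are listed in the submitters' processing notes, without versions. The deposited score is the authors' own, and how it was defined is not stated in the files or labels. Depth is unknown.

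Overlaps, distances and windows were computed with pandas 2.3.3 and numpy 2.4.6 in Python 3.11.15. Intervals came from scipy 1.17.1, and figures from matplotlib 3.10.9. Peaks overlapped when they shared at least 1 bp. Genome windows ran end to end from the first to the last peak of each chromosome, assembly gaps included. No test between conditions was possible. Overlap routines were tested on simulated data. Every peak in the 4 windows was used, and the text names those nearest to a start, the best-scoring ones and the joint sites. Members and lists were chosen with earlier results of these data known. Lists of other epithelial and mesenchymal genes needed an hg19 annotation and were not applied. Promoter sequence was taken from RefSeq for 1 of the 4 genes, and CDH1, EPCAM and ESRP1 were not matched. Alternatives were other flanks, the upper 50% by score, 200 bp centres, 50% of the narrower interval and leaving out each H3K4ox replicate. Counting joint sites with H3K4ox of either replicate, or with H2A.Z and RUVBL2 peaks that meet, was added after seeing the data.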

Additional observations from a re-analysis of the deposited data

How the results depend on the processing

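With genes alone, the 4 genes held 30 H3K4ox peaks (mean of both libraries, 54.5 with flanks), 4 H2A.Z peaks (12), 6 RUVBL2 peaks (18), 19 H3K4ox shared regions (37) and 1 joint site (7). With the upper 50% of each list by score these were 31, 7, 7, 20 and 2. A flank of 20 kb gave 73.5, 16, 26, 47 and 8. These counts follow from fewer or more bases or peaks. Intervals of 200 bp at the centres gave 22 shared regions and 0 joint sites, and 50% of the narrower interval gave 37 and 6. Leaving out an H3K4ox replicate gave 53 to 56 H3K4ox peaks, 53 to 56 shared regions (then single peaks) and 4 to 6 joint sites. With H3K4ox of either replicate there were 7 joint sites, and 5 when H2A.Z and RUVBL2 had to overlap each other. CDH1 and CLDN4 had 0 joint sites under each of these settings. No paired analysis was possible because the 4 lists come from 1 condition and only H3K4ox has numbered replicates. Without read depth, a missing peak cannot be told from one below the caller's minimum.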

Other observations

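The joint sites nearest to CDH1 and CLDN4 lay outside their windows. The nearest upstream of the CDH1 start lay at 729 kb and the nearest downstream at 314 kb, and for CLDN4 the distances were 100.4 kb and 369 kb. At EPCAM and ESRP1 the nearest upstream ones lay at 1.48 and 4.10 kb. These distances were looked at after the other values had been seen. Genome windows of CDH1 length held 0.405 joint sites on average and those of CLDN4 length 0.0816. Such distances were not computed for other genes, so they do not set CDH1 or CLDN4 apart.

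The EPCAM window was denser in H3K4ox than the 500 kb on either side taken as a whole. The 500 kb upstream held 16.4 and 17.4 H3K4ox peaks per 100 kb in replicates 1 and 2, and the 500 kb downstream 20.6 and 18.2, where the gene window had 50.2 and 47.5. The dense stretch ran on past the window. With flanks of 20 kb there were 25.5 H3K4ox peaks (mean of both libraries, 18.5 with 10 kb) and 12 RUVBL2 peaks (7 with 10 kb). Where it ends was not determined.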
